A study of Mus musculus with 235 samples.

Results

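The kinases Sgk1 and Sgk3 and 3 of the proteins that they are known to act on, Nedd4l, Ndrg1 and Ndrg2, were followed across 8 brain regions of mice given dexamethasone, a synthetic glucocorticoid. These 5 genes were named by symbol, with earlier results of these data known, among them the response of Sgk3 by region, and are 5 of the 27998 genes in the count table. The animals were 30 male C57Bl/6 mice of 3 months, group-housed, of which 15 received dexamethasone at 10 mg per kg and 15 received 0.9% saline (vehicle), each by intraperitoneal injection for 4 h. All brains were perfused, and tissue was punched from the regions that the labels name PFC, AMY, PVN, CER, vCA1, dCA1, vDG and dDG. The 235 libraries, 1 for each animal and region, hold 3' end reads that carry unique molecular identifiers, and each of the 16 groups of 1 region and 1 arm holds 13 to 15 of them.

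Per library, 268538 to 1451422 counts were held (median 742957). A punch is bulk tissue, so fewer cells of a type and less RNA per cell cannot be told apart in any value below. The region names are used as the labels give them: Gabra6, which marks cerebellar granule cells, had a median of 0 CPM in both CER groups, and the summed level of 6 dentate granule cell markers in vehicle libraries had a median of 514 CPM in dDG against 674 CPM in dCA1 and 170 CPM in vDG. CPM, the count of a gene scaled to a common library size of 1000000, is the unit of all levels below. It is not divided by gene length, so levels are compared between groups and not between genes.

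Serum- and glucocorticoid-regulated kinases belong to the same branch of protein kinases as Akt and are switched on downstream of phosphoinositide 3-kinase by mTORC2 and PDK1. SGK1 is known for control of its amount by transcription, which glucocorticoids and mineralocorticoids raise, whereas SGK3 carries a lipid-binding domain that places it on endosomes. Both kinases phosphorylate NEDD4L, a ubiquitin ligase that removes ion channels and transporters from the cell surface, and SGK1 phosphorylates NDRG1 and NDRG2, whose phosphorylation is used as a readout of its activity. The libraries measure mRNA and hold nothing on phosphorylation.

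In the count table Sgk1 (ENSMUSG00000019970) lies on chromosome 10 from 21882184 to 21999903 on the plus strand of mm10, and Sgk3 (ENSMUSG00000025915) on chromosome 1 from 9798107 to 9900845 on the plus strand. Ndrg1 (ENSMUSG00000005125) lies on chromosome 15 from 66929321 to 66969640 on the minus strand, and Ndrg2 (ENSMUSG00000004558) on chromosome 14 from 51905271 to 51913488 on the minus strand. All 5 are protein-coding genes counted over their exons. Of the exonic bases of Ndrg1, 6.36% overlap Gm17035 on the other strand, which held 1 count over all libraries. No member was at 0 in any library.

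RefSeq start-site windows, each 300 bases long from 250 bases before a start site, were held for Sgk1 (6 windows) and Ndrg2 (3 windows), on GRCm38.p6. The full glucocorticoid response element palindrome, searched as the half-site AGAACA, 3 bases of any kind and its reverse complement TGTTCT, reads the same on both strands. It was in 1 of the 6 windows of Sgk1 and in none of those of Ndrg2. Of the 32851 windows of all genes, 3 held it, or 0.00913%. The window of Sgk1 that holds it, chr10:21993640-21993939 on the plus strand, is shown because dexamethasone acts through the receptor that this element is named for, with the element in capitals.
Sgk1 start-site window: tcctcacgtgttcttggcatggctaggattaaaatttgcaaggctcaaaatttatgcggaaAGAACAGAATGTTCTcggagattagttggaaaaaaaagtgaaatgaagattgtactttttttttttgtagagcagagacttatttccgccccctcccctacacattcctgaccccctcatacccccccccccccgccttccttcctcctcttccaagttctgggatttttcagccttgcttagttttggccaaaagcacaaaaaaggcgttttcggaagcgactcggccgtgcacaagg
The element spans bases 189 to 175 before the start site at 21993890. Since reads come from the 3' end of transcripts, the counts do not show which start site was used. Of 46 genes of the pathway list that had a window, 0 held the full palindrome.

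Dexamethasone was compared with vehicle in each region over all genes with enough counts (edgeR's quasi-likelihood test, called at an adjusted p under 0.05), and no member fell in any region. In PFC 4 of the 5 members rose and 0 fell, beside 3.86% of genes that rose and 2.28% that fell. In PVN 4 rose and 0 fell, beside 3.57% and 2.06% of genes. Each of the next 5 regions had 3 members that rose and 0 that fell. The shares of genes that rose and fell were 3.90% and 2.28% for CER, 3.54% and 2.08% for AMY, 3.41% and 2.04% for vCA1, 2.57% and 2.11% for dCA1, and 2.33% and 1.37% for dDG. In vDG 2 members rose and 0 fell, beside 2.64% and 1.29% of genes.

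Sgk1 rose after dexamethasone in all 8 regions, and its largest fitted changes were in CER and AMY. In CER the vehicle libraries held 38.6 to 298 CPM with a median of 106 CPM, and the dexamethasone libraries 226 to 459 CPM with a median of 299 CPM. In AMY vehicle libraries ran from 25.8 to 267 CPM around a median of 92.1 CPM, and dexamethasone libraries from 129 to 329 CPM around 257 CPM. The groups overlapped in all 8 regions, and 13 of 15 vehicle libraries in CER and 11 of 15 in AMY lay below every treated library. The rise was 2.42-fold in CER (log2 1.27 ± 0.20 SE, adjusted p = 9.19e-06, edgeR's quasi-likelihood test) and 2.35-fold in AMY (log2 1.23 ± 0.22, adjusted p = 0.000114).

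In the other regions the fitted rise of Sgk1 was smaller. In PFC vehicle libraries held 36.7 to 91.5 CPM (median 50.02) and treated libraries 76.9 to 169 CPM (median 104), a log2 change of 1.00 ± 0.12. The 4 hippocampal regions and PVN are described by their medians: 62.2 against 126 CPM in PVN, 70.5 against 119 CPM in dCA1, 79.6 against 146 CPM in dDG, 70.0 against 118 CPM in vCA1 and 47.2 against 157 CPM in vDG. The fitted log2 change was 1.06 in vDG, 1.01 in PVN, 0.84 in vCA1 and 0.77 in dCA1, and the smallest fitted value was 0.64 ± 0.17 in dDG (adjusted p = 0.0236). By the ratio of medians the order was another one, with the largest ratio in vDG and smaller ratios in dCA1 and vCA1 than in dDG. In that region 6 of 15 treated libraries lay above the highest vehicle library.

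Sgk3 also rose in all 8 regions, but its change ran over a wider range. In CER vehicle libraries held 10.1 to 49.4 CPM (median 27.3) and treated libraries 95.2 to 199.8 CPM (median 151), and the groups did not overlap. The rise there was 5.63-fold (log2 2.49 ± 0.14, adjusted p = 4.05e-18). In AMY 9.48 to 51.5 CPM (median 32.2) stood against 54.8 to 145 CPM (median 114), again without overlap, a log2 change of 1.74 ± 0.16. The third region without overlap was vCA1, with 10.3 to 30.0 CPM (median 19.1) in vehicle and 37.6 to 72.1 CPM (median 50.4) in treated libraries and a log2 change of 1.38 ± 0.14. Groups that did not overlap were found for 0.620% of genes tested in CER, 0.430% in AMY and 0.329% in vCA1.

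PFC stood at the other end of the range of Sgk3. Vehicle libraries there held 13.9 to 36.1 CPM (median 25.3) and treated libraries 17.9 to 83.0 CPM (median 34.0), and 5 of 14 treated libraries lay above every vehicle library. The rise was 1.52-fold (log2 0.60 ± 0.17, adjusted p = 0.0173). Between these ends the log2 change was 1.72 ± 0.18 in PVN, 1.69 ± 0.22 in vDG, 1.27 ± 0.23 in dDG and 1.09 ± 0.18 in dCA1. Sgk3 is the shallower of the kinases in reads: its vehicle groups had median counts of 13 to 21 per library.

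**Figure D1:**
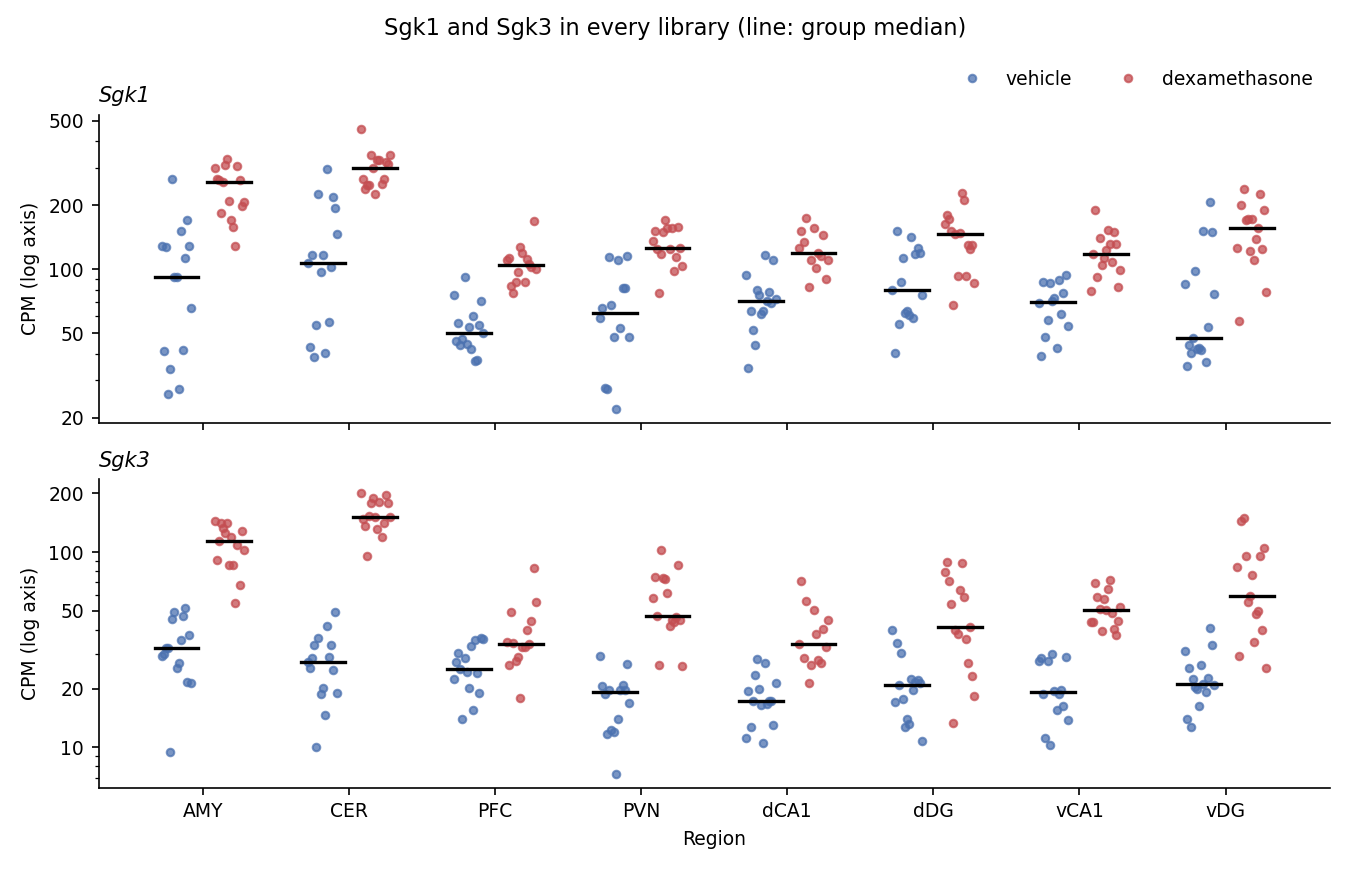
CPM of Sgk1 (top) and Sgk3 (bottom) on a log axis in every library of the 8 regions. Each point is 1 library, blue for vehicle and red for dexamethasone, and each line is the group median. Sgk1 groups overlap in every region, and those of Sgk3 are apart in AMY, CER and vCA1 and closest in PFC.

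Beside each other, the fitted log2 change of Sgk3 was larger than that of Sgk1 in 7 regions and smaller in PFC. In CER it was 2.49 for Sgk3 and 1.27 for Sgk1, in AMY 1.74 and 1.23, and in PFC 0.60 and 1.00. The difference between the genes was not tested. Whether the change of a gene differed among regions was tested in 1 fit over all libraries with the animal as a block. Sgk3 differed (F = 9.19, adjusted p = 5.93e-07) and was 13th by p among 11053 genes, of which 1.27% passed. Sgk1 passed narrowly (F = 3.84, adjusted p = 0.0479), with an adjusted p of 0.0531 without the count filter, 0.338 in limma-voom with the animal as a random block and 0.9999 without the animal in the model.

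Of the 28 pairs of regions, 5 passed for Sgk3, where 0.124% of all tests over genes and pairs passed. Its log2 change in CER exceeded that in PFC by 1.93 ± 0.26 (adjusted p = 5.63e-08), in dCA1 by 1.42 ± 0.28, in dDG by 1.25 ± 0.27 and in vCA1 by 1.19 ± 0.27. The change in AMY exceeded that in PFC by 1.14 ± 0.26 (adjusted p = 0.0224). Of all genes, 0.308%, 0.317%, 0.335%, 0.280% and 0.154% passed in those 5 pairs, in the same order. For Sgk1 0 of 28 pairs passed in edgeR and 0 in limma-voom, with 9 and 7 pairs at an unadjusted p under 0.05. The pair of Sgk1 with the smallest p was CER and dDG (difference 0.75 ± 0.20, adjusted p = 0.104).

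Ndrg1, an SGK1 substrate that is abundant in myelinating cells, rose in 6 of 8 regions. The largest change was in PFC, where vehicle libraries held 45.6 to 202 CPM (median 63.3) and treated libraries 99.3 to 215 CPM (median 137). This was a log2 change of 0.89 ± 0.16 (adjusted p = 5.28e-05), and 12 of 15 vehicle libraries lay below every treated one. The log2 change was 0.77 ± 0.14 in dCA1, 0.72 ± 0.18 in dDG, 0.49 ± 0.10 in PVN, 0.41 ± 0.09 in CER and 0.39 ± 0.12 in AMY. The call in AMY (adjusted p = 0.0479) was lost with RIN, the RNA integrity number, as a covariate (adjusted p = 0.103), with upper-quartile scaling (0.0620) and with a minimum of 10 counts in every library (0.0588).

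In vCA1 Ndrg1 ran from 74.5 to 194 CPM in vehicle and from 136 to 254 CPM in treated libraries, with a log2 change of 0.23 ± 0.11 that did not pass (adjusted p = 0.311). In vDG it ran from 60.2 to 429 CPM in vehicle and from 109 to 362 CPM in treated libraries (0.31 ± 0.22, adjusted p = 0.713). With the oligodendrocyte level of each library in the model, vDG passed as well (0.63, adjusted p = 0.000164), which makes 7 regions. The response of Ndrg1 did not pass as different among the 8 regions (adjusted p = 0.292), so its 6 and 2 regions are not shown to differ.

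Nedd4l (ENSMUSG00000024589, chromosome 18 from 64887756 to 65217826 on the plus strand), the ubiquitin ligase, rose in PFC, PVN and vCA1. In PFC vehicle libraries held 156 to 243 CPM (median 199.98) and treated libraries 220 to 338 CPM (median 257), with 11 of 14 treated libraries above every vehicle library (log2 0.41 ± 0.07, adjusted p = 9.92e-05). In PVN 91.0 to 142 CPM (median 122) stood against 124 to 206 CPM (median 152), a log2 change of 0.41 ± 0.08. The groups overlapped in both regions.

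In vCA1 Nedd4l ran from 169 to 262 CPM in vehicle and from 185 to 381 CPM in treated libraries (0.42 ± 0.09, adjusted p = 0.00245). In the same libraries 2 of the 3 tested dentate granule cell markers rose, with a median log2 change of 1.22, and their list's summed level ran from 61.7 to 179.8 CPM in vehicle and from 92.1 to 437 CPM in treated libraries. With the dentate level in the model the change of Nedd4l in vCA1 was 0.22 and did not pass (adjusted p = 0.367), whereas Nedd4l passed in dCA1 (0.36, adjusted p = 0.00175) and dDG (0.37, adjusted p = 0.000844). With the oligodendrocyte level in the model the change in vCA1 was 0.31 and did not pass (adjusted p = 0.0664). Without a covariate the log2 change was 0.37 ± 0.13 in dDG (adjusted p = 0.139) and 0.21 ± 0.11 in dCA1 (adjusted p = 0.401). In AMY, CER and vDG the fitted change lay between −0.03 and 0.22. In the fit over all libraries, the response of Nedd4l did not pass as different among the regions (F = 1.69, adjusted p = 0.920). Of its 28 pairs of regions 0 passed. The regions where Nedd4l was called are thus not shown to differ from those where it was not.

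Ndrg2, the member of the NDRG family that astrocytes express strongly, passed in 0 of 8 regions in edgeR and 0 in DESeq2, with 0 regions at an unadjusted p under 0.05. Its log2 change ran from −0.15 in dDG to 0.04 in AMY. The 95% interval of the change ran from −0.39 to 0.11 in vDG and, where it was narrowest, from −0.21 to 0.07 in PFC. In PFC vehicle libraries held 690 to 1110 CPM (median 863) and treated libraries 644 to 949 CPM (median 806).

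Of the 7924 genes tested in all 8 regions, 1.27% passed in all of them, as Sgk1 and Sgk3 did. Within single plates that held at least 2 libraries of each arm, Sgk1, Sgk3 and Ndrg1 were higher after dexamethasone in 32 of 32 combinations of region and plate, Nedd4l in 27 and Ndrg2 in 13. Within punching dates Sgk3 was higher in 32 of 32 combinations and Sgk1 and Ndrg1 in 31, where the exception of both was vDG at date 5. The regions come from the same animals, so these combinations are not independent. How many of all genes reached such counts was not computed.

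**Figure D2:**
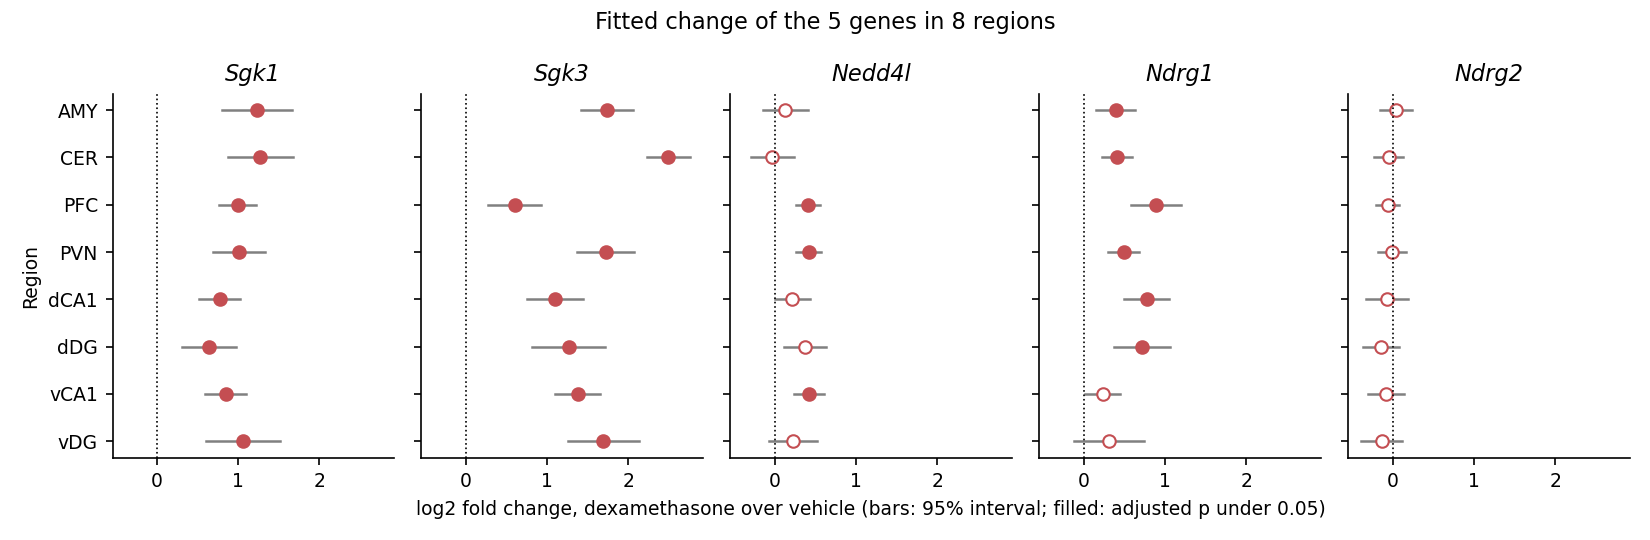
Fitted log2 fold change of dexamethasone over vehicle for the 5 genes in the 8 regions, with 95% intervals as grey bars. Filled points passed at an adjusted p under 0.05. Sgk1 and Sgk3 are filled in all 8 regions, Ndrg1 in 6, Nedd4l in 3 and Ndrg2 in none.

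**Figure D3:**
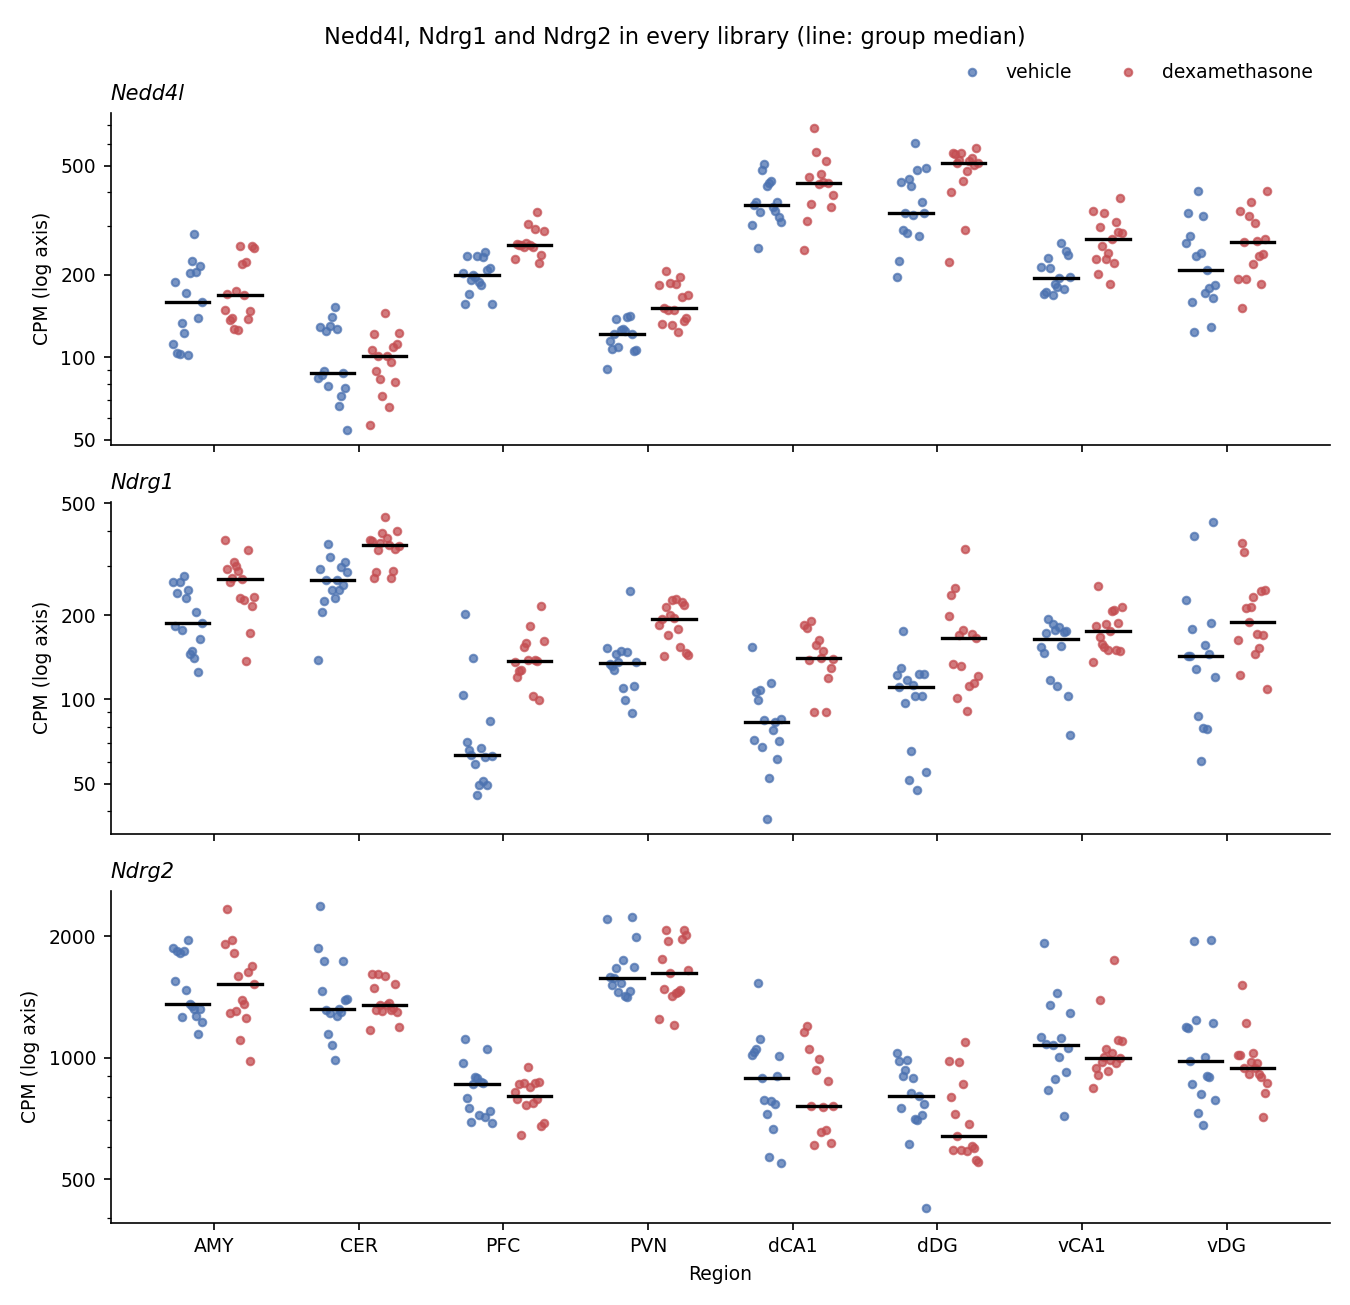
CPM of Nedd4l, Ndrg1 and Ndrg2 on log axes in every library, with vehicle in blue, dexamethasone in red and the group median as a line. Ndrg1 medians are higher after dexamethasone in all 8 regions, by the largest ratio in PFC, and the groups overlap for all 3 genes in every region.

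The level of all 5 genes in vehicle libraries differed among the regions, as did that of 73.3% of the 10451 genes tested. For Sgk1 the mean fell from 124 ± 78.7 CPM (SD, n = 15) in CER through AMY (100.3), dDG (90.1), vDG (76.7), dCA1 (72.3), vCA1 (67.7) and PVN (65.8) to 53.9 ± 15.3 CPM in PFC (n = 15). Of the 28 pairs 13 passed, where 31.7% of tests over all genes and pairs did, and 7 passed without the animal block and 7 with the oligodendrocyte level of each library in the model. Among the 7 neighbours in the order of means, dDG and vDG passed (adjusted p = 0.0494). The fit had another order: vDG lay below dCA1 by 0.09 log2 units (adjusted p = 0.695) and below vCA1 by 0.04 (adjusted p = 0.895), and in that order no neighbours passed. For Sgk3 the order was AMY (33.1 ± 11.7 CPM, n = 15), CER (27.5), PFC (26.1), vDG (23.1), dDG (21.2), vCA1 (20.5), dCA1 (18.1) and PVN (17.8 ± 6.00 CPM, n = 14). For Sgk3 10 of 28 pairs passed and 0 of the 7 neighbours, and the fit placed vCA1 above dDG by 0.02 log2 units. CER and PFC were thus neighbours in the vehicle level of Sgk3 (27.5 and 26.1 CPM, adjusted p = 0.857), and its responses were 2.49 and 0.60.

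Of the targets, Nedd4l was highest in dCA1 (373 ± 70.4 CPM, n = 15) and dDG (368 ± 110 CPM), whose difference did not pass (adjusted p = 0.911). It stood at 227 CPM in vDG, 203 in vCA1, 201 in PFC, 164 in AMY, 120 in PVN and 100.1 ± 30.8 CPM in CER (n = 15). Between neighbours in that order the steps from dDG to vDG, from PFC to AMY and from AMY to PVN passed. Ndrg1 was highest in CER (263 ± 52.9 CPM), above each of the other 7 regions, and lowest in PFC (78.5 ± 42.1 CPM). Between them lay AMY (199 CPM), vDG (170), vCA1 (151), PVN (137), dDG (102) and dCA1 (84.9), and the steps from CER to AMY and from PVN to dDG passed. Ndrg2 was highest in PVN (1676 ± 274 CPM, n = 14), AMY (1505) and CER (1444) and lowest in dDG (801 ± 160 CPM, n = 15), and the steps from CER to vCA1 and from vDG to dCA1 passed among its neighbours.

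Sgk1, Ndrg1 and Ndrg2 were also set against cell type markers within each of the 16 groups, and Sgk3 and Nedd4l were not. The share of all genes that follow these markers was not computed, so the counts of groups below have no background beside them. The oligodendrocyte level of a library is the mean log2(CPM + 1) of 7 markers (Mbp, Mog, Mag, Mobp, Cnp, Cldn11 and Ermn). In treated libraries Sgk1 followed it in all 8 regions, with Pearson's r from 0.69 in PFC to 0.96 in vDG and Spearman's rho from 0.55 to 0.93 (permutation test, highest adjusted p of r 0.0131 over 48 relations). By rho 7 of the 8 passed, and PFC did not (adjusted p = 0.0711). In vehicle libraries r ran from −0.23 in PVN to 0.61 in vDG and passed in vDG (adjusted p = 0.0249). Without the 2 libraries farthest from the median level, 5 of the 8 relations in treated libraries passed and r was 0.31 in PFC, and 0 of the 8 in vehicle libraries passed. With both measures centred within punching dates r ran from 0.67 to 0.97 in treated groups and from −0.18 to 0.78 in vehicle groups, and within plates from 0.66 to 0.94 and from −0.07 to 0.59. Of the markers themselves 0 rose and 5 fell over 56 tests, the median log2 change of the list ran from −0.45 in vCA1 to 0.00 in PFC, and its summed level ran from 1744 to 4526 CPM in vehicle and from 1143 to 4844 CPM in treated libraries of vCA1. Markers of endothelium fell in 16 of 32 tests, 2 of 4 in each region, and those of microglia in 8 of 34. The endothelial list's median log2 change ran from −0.57 in dDG to −0.27 in vDG, and the medians of its summed level over the regions were 306 to 442 CPM in vehicle and 222 to 305 CPM in treated libraries. The part of these 2 cell types in the members' changes was not tested. With the oligodendrocyte level of each library in the model Sgk1 passed in all 8 regions (log2 changes of 0.73 to 1.43), and so did Sgk3 (0.60 to 2.54).

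In a comparison added after these relations were seen, whether the slope on the oligodendrocyte level differed between arms was tested in each region over all genes. For the 5 genes in 8 regions 0 of 40 terms passed in edgeR, with 8 at an unadjusted p under 0.05, and 0.00% of all genes passed in any region. Of all genes, from 280 of 9035 in CER to 700 of 9273 in PVN were at an unadjusted p under 0.05. For Sgk1 the log2 slope per unit of the level was −1.25 ± 0.53 in vehicle and 0.51 ± 0.23 in treated libraries of PVN (difference 1.76 ± 0.58, adjusted p = 0.538) and −0.10 ± 0.16 and 0.50 ± 0.11 in vCA1 (difference 0.59 ± 0.20, adjusted p = 0.999924), its 2 regions at an unadjusted p under 0.05. In vDG it was 0.65 ± 0.14 and 0.58 ± 0.12. The smallest p of the 40 was that of Sgk3 in vDG, where the slope was 0.17 ± 0.13 in vehicle and 0.81 ± 0.10 after dexamethasone (difference 0.63 ± 0.16, adjusted p = 0.626). Over the 8 regions the slope of Sgk3 ran from −0.23 to 0.35 in vehicle and from 0.22 to 0.97 in treated libraries. The slope was higher in treated libraries in 8 regions for Sgk3, 6 for Sgk1, 4 for Nedd4l, 3 for Ndrg2 and 0 for Ndrg1.

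**Figure D4:**
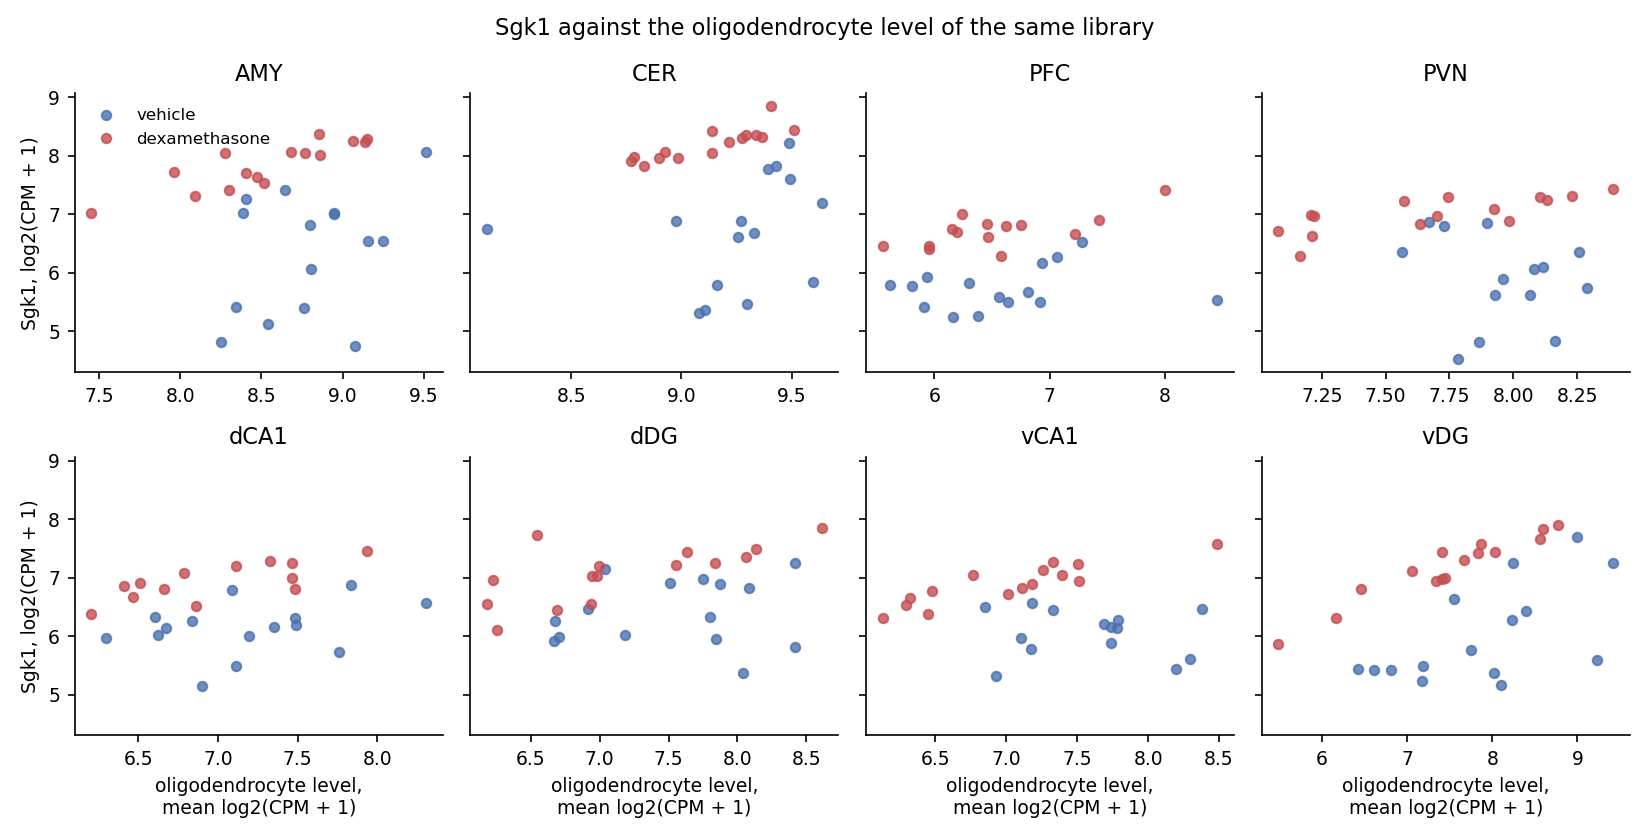
Sgk1 (log2(CPM + 1), vertical axis) against the oligodendrocyte level of the same library (mean log2(CPM + 1) of 7 markers, horizontal axis) in the 8 regions, with 1 point per library, vehicle in blue and dexamethasone in red. In treated libraries r runs from 0.69 in PFC, where it is 0.31 without the 2 farthest libraries, to 0.96 in vDG, and r in vehicle libraries runs from −0.23 to 0.61.

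Ndrg1 followed the oligodendrocyte level in vehicle libraries of 7 regions and in treated libraries of 6 by r, and in 6 and 5 by rho, with r from 0.39 to 0.91 in vehicle and from 0.37 to 0.89 after dexamethasone. The lowest r of each arm was in vCA1, and without the 2 farthest libraries 6 vehicle and 3 treated groups passed. Without them r of Ndrg1 ran from 0.39 to 0.89 in vehicle and from −0.32 to 0.87 in treated groups. Within punching dates its r ran from 0.31 to 0.88 in vehicle and from 0.44 to 0.94 in treated groups. Ndrg2 followed the astrocyte level, the same mean over Aqp4, Gja1, Aldh1l1, Slc1a3, Gfap, Fgfr3 and Aldoc, in 6 vehicle and 6 treated groups by r and in 4 and 4 by rho, and without the 2 farthest libraries in 4 and 3 by r. Its r ran from 0.41 to 0.91 in vehicle and from −0.10 to 0.81 in treated groups, within dates from 0.24 to 0.90 and from 0.08 to 0.77, and within plates from 0.38 to 0.93 and from −0.03 to 0.83. Without the 2 farthest libraries r of Ndrg2 ran from 0.29 to 0.87 in vehicle and from −0.41 to 0.80 in treated groups. The part of these markers in the regional levels of Ndrg1 and Ndrg2 was not tested beyond 1 fit of vehicle levels with the oligodendrocyte level, in which 8 of 28 pairs passed for Ndrg1 instead of 20.

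Vehicle libraries of Sgk1 spread widely, and a comparison added after this was seen asked whether the libraries of 1 animal deviated together. Over vehicle animals Sgk1 was positively correlated between all 28 pairs of regions, with r from 0.47 to 0.91 and a median of 0.70, and rho from 0.45 to 0.90 (13 to 15 animals a pair). Of these pairs 11 passed by r and 15 by rho (permutation test, adjusted over 280 relations of the 5 genes), and the median r was 0.69 without the 2 farthest animals and 0.73 within punching dates. Over treated animals the median r of Sgk1 was −0.02, with a range from −0.49 to 0.45, and 0 pairs passed. Permuting the arm labels of the animals, done for each of the 5 genes, gave an unadjusted p of 0.00014 for this difference between arms, and 0.663 for Sgk3, whose medians were 0.00 and −0.04. As a description, the vehicle median of Sgk1 was 2nd among 11524 genes with a mean of at least 5 CPM, whose median was 0.02, and in treated animals it was at position 7492. Among the 15 highest genes in vehicle animals, named after their values were seen, treated medians were also near 0 for Nfkbia (0.67 in vehicle and 0.05 in treated animals), Tsc22d3 (0.61 and −0.04), Ddit4 (0.50 and −0.12) and Klf9 (0.50 and −0.04). They were higher for Plin4 (0.52 and 0.15), Cdkn1a (0.56 and 0.30), Tmem252 (0.56 and 0.36) and Lcn2 (0.47 and 0.41), and for the other 6 of the 15 they ran from 0.55 to 0.72. The haemoglobin gene Hbb-bs, at the first position, had 0.71 in vehicle and 0.72 in treated animals.

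Averaged over regions, the deviation of Sgk1 from its group mean ran from −0.86 to 0.84 log2 units among the 15 vehicle animals and from −0.27 to 0.15 among the 15 treated animals. The vehicle animals numbered 2, 4, 9 and 11 had Sgk1 at or below the group median in every region, and those numbered 6, 10 and 14 above it in every region that they had (7 regions for 2 and 14, and 8 for the others). Over vehicle animals this mean deviation followed that of Tsc22d3, a glucocorticoid-induced leucine zipper gene (r = 0.85, rho = 0.87, adjusted p of r = 0.00448 over 32 relations, r = 0.88 without the 2 farthest animals and 0.97 within dates). With Fkbp5, a co-chaperone of the glucocorticoid receptor, r was 0.65 (rho = 0.65, adjusted p = 0.0896), with 0.64 without the 2 farthest animals and 0.82 within dates. With the haemoglobin gene Hbb-bs, which tracks residual blood, r was 0.17 (rho = 0.26, adjusted p = 0.810). That r was 0.30 without the 2 farthest animals and 0.32 within dates. For Sgk3 with Tsc22d3 r was 0.68 (rho = 0.63, adjusted p = 0.0896). In treated animals r of Sgk1 with Tsc22d3 was 0.14 (rho = 0.40, adjusted p = 0.810), with 0.46 without the 2 farthest animals and 0.04 within dates. In the same animals r of Sgk1 with Fkbp5 was 0.56 (rho = 0.51, adjusted p = 0.150, and 0.56 without the 2 farthest animals).

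**Figure D5:**
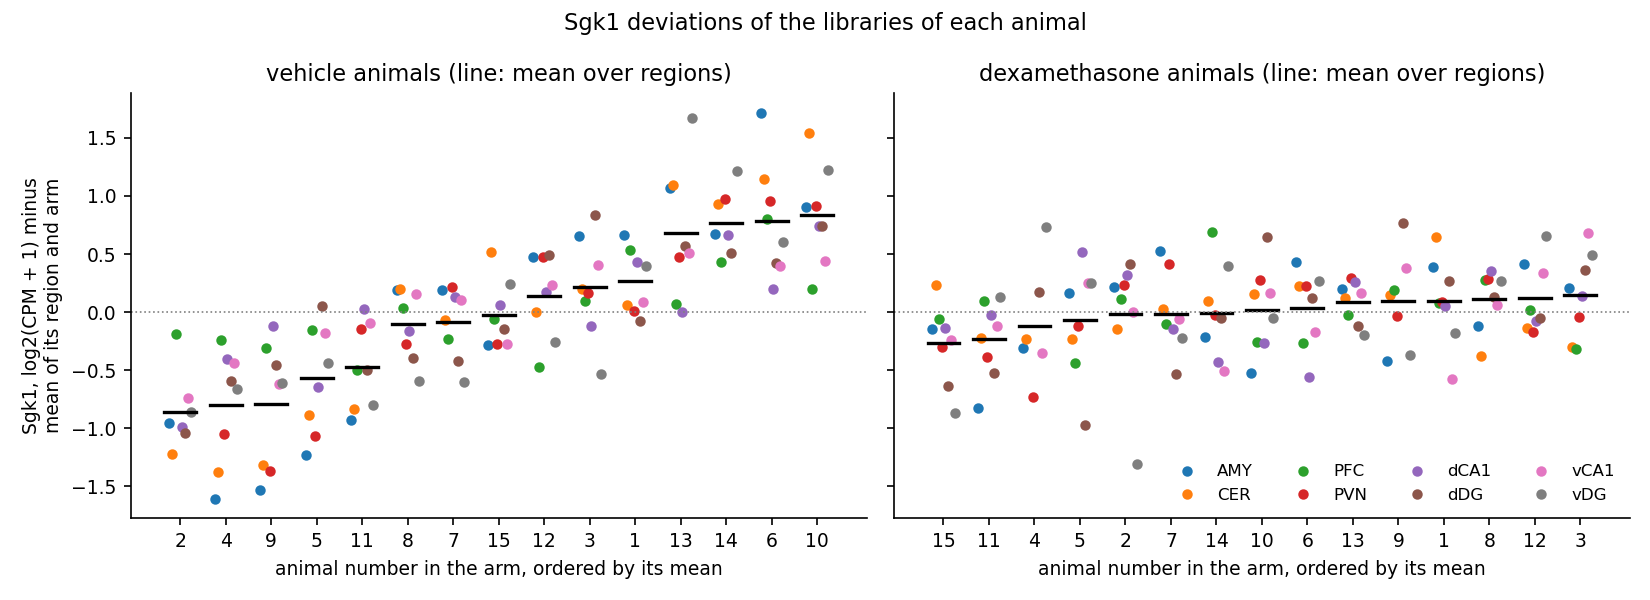
Deviation of Sgk1, log2(CPM + 1) minus the mean of its region and arm, for each animal, with vehicle animals on the left and treated animals on the right, ordered by their mean (black line). Each point is 1 region. Vehicle means run from −0.86 to 0.84, and treated means from −0.27 to 0.15.

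The rest of the pathway was covered by a list of 65 genes without the members, ordered by role, of which 53 to 56 were tested in a region. The median log2 change of the list ran from −0.04 to 0.02 over the regions, beside −0.02 to 0.00 for all genes. Of the steroid input, Fkbp5 and Tsc22d3 rose in all 8 regions and Nr3c1, the glucocorticoid receptor gene, fell in all 8, by 0.50 in PVN to 0.89 in PFC on the log2 scale. Fkbp5 had the smallest p of the list in each region and Tsc22d3 changed by 0.85 in CER to 1.39 in dCA1. Between the regions where Sgk3 changed least and most, Fkbp5 changed by 2.79 ± 0.15 in PFC and 2.73 ± 0.14 in CER, against 0.60 and 2.49 for Sgk3. Per1, a clock gene that glucocorticoids induce, rose in PFC (0.37 ± 0.11).

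Beside the counts of the list that follow, 2.33% to 3.90% of all genes rose and 1.29% to 2.28% fell in a region. Upstream of the kinases, 0 of 120 tests of 16 genes of upstream kinases and complexes (phosphoinositide 3-kinase, PDK1, mTORC2, WNK and others) passed in edgeR, with 17 at an unadjusted p under 0.05. Of these 17, 5 were of Prr5l, whose fitted log2 change lay between −0.70 and −0.26 in the 7 regions where it was tested (lowest adjusted p = 0.0683). DESeq2 passed 1 of 144 tests of this role, Wnk4 in vDG (2.12, adjusted p = 0.00582). Wnk4 had at most 11 counts in a library and was not tested in edgeR. Among the related Akt kinases, Akt2 fell in PFC (log2 −0.40 ± 0.12, adjusted p = 0.0330) from 47.7 ± 10.8 to 36.3 ± 7.94 CPM, 1 of 24 tests. Sgk2, the third kinase of the family, had at most 19 counts in a library and was below edgeR's count filter in every region.

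Downstream, Foxo3, a transcription factor that the kinases keep out of the nucleus, rose in 5 of 8 regions (CER, PFC, PVN, vCA1 and vDG). The largest rise was in CER, from 64.5 ± 12.0 to 85.7 ± 8.20 CPM (log2 0.39 ± 0.08, adjusted p = 0.00124). Foxo1, of the same family, rose in PVN (0.35 ± 0.10) and vCA1 (0.52 ± 0.11). These were the 7 of 54 tests of the 7 substrate and target genes that passed, and Foxo4, Gsk3a, Gsk3b, Tsc2 and Nos1 passed in no region in edgeR. Usp2, a deubiquitinase that works against NEDD4L on the epithelial sodium channel, rose in AMY, CER, PVN and vDG, in AMY from 77.7 ± 25.4 to 117 ± 31.7 CPM (log2 0.59 ± 0.14, adjusted p = 0.00555). The other 10 genes of ubiquitin ligases, adaptors and deubiquitinases passed in 0 regions, and Ndrg3 and Ndrg4 in 0 of 16 tests in edgeR and 1 in DESeq2 (Ndrg3 in dDG, 0.30, adjusted p = 0.0394). Of 12 tested channels and transporters Kcna1 passed, in PVN (0.45 ± 0.13), and the 3 subunit genes of the epithelial sodium channel were below the count filter in every region.

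Over the 16 group means, as a description, the genes most like Sgk1 among 11519 were Itgad (r = 0.97), Polr3e (0.97) and Mafk (0.96), and the same genes led for Sgk3 (Polr3e 0.97, Itgad 0.96 and Mafk 0.95). Between Sgk1 and Sgk3 r was 0.94. Nedd4l was most like Pip5k1a, Rbbp7 and Sphkap (r = 0.98 for each), Ndrg1 like Sox8 (0.95), Smco3 (0.95) and Ppfibp2 (0.94), and Ndrg2 like Nrsn2 (0.98), Ndn (0.97) and 2310022B05Rik (0.97). These points share animals and, for 8 of the 16 means each, the drug.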

How the data were processed

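Per the submitters' processing notes, reads went through FastQC 0.11.4, cutadapt, UMI-tools 0.5.4, STAR 2.6.0a and featureCounts 1.6.4 on mm10. Whether counting used strand is not given in the sources used here. The deposited counts are whole numbers per gene, untransformed, and symbols came from a table matched by gene ID (27645 of 27998 genes). The authors also deposited variance-stabilised values on a log2 scale, with DESeq2 1.30.1 named in the notes, for 228 of the 235 libraries, used as an alternative. Each library is 1 region of 1 animal.

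Each region was tested with edgeR 4.0.16 (quasi-likelihood, TMM scaling, its default count filter, Benjamini-Hochberg over all genes tested, threshold 0.05). Regions were compared in 1 fit with the animal as a block, and pairs were adjusted over all genes and 28 pairs together. Permutation tests were two-sided with 100000 resamples. The edgeR steps were tested on simulated data. limma 3.58.1 and DESeq2 1.42.0 gave alternatives. The 5 members were named throughout, list genes where they passed in at least 3 regions or had the smallest p of a region, and other list genes were named after their values were seen. Members and lists were chosen with earlier results of these data known. Of the planned oligodendrocyte markers and of the planned pathway list 1 gene each is not reported here and was left out of all values of those lists. No 2 libraries of a group were alike within sampling noise.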

Additional observations from a re-analysis of the deposited data

Results flagged for a closer look

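The test of the region-by-treatment terms passed for both kinases, narrowly for Sgk1. For Sgk3 the adjusted p was 5.93e-07, with log2 changes from 0.60 in PFC to 2.49 in CER. For Sgk1 it was 0.0479, with log2 changes from 0.64 in dDG to 1.27 in CER, and 0 of its 28 pairs of regions passed in edgeR or limma-voom. The call for Sgk1 was lost without the count filter (adjusted p = 0.0531), in limma-voom with the animal as a random block (0.338) and without the animal in the model (0.999929).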

How the results depend on the processing

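Sgk1 passed in all 8 regions under every alternative run (in all 4 hippocampal regions for the dentate level), and Sgk3 under every one but a minimum of 10 counts in every library, where it was tested in PFC only and passed in 1 region. With that minimum fewer genes were tested, and the genes called numbered 345 for PFC, 292 for AMY, 292 for PVN, 286 for CER, 283 for vCA1, 235 for dCA1, 194 for vDG and 188 for dDG. Of the log2 changes of members under alternatives, 479 kept their direction and their side of the threshold, 4 passed newly, 5 no longer passed and 5 changed sign. The log2 change of Nedd4l in AMY was -0.028 with the oligodendrocyte level, and in CER 0.019 in the authors' values. That of Ndrg2 in dCA1 was 0.011 without the 7 libraries absent from the authors' tables and 8.85e-06 in the authors' values, and in vCA1 0.016 with the dentate level. With the dentate level, 278 genes were called in vCA1, and Nedd4l passed in 2 hippocampal regions instead of 1. DESeq2 called 510 genes in dDG.

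A replicate block by number called 543 genes in dDG, against 316 without, and Nedd4l passed there (0.39, adjusted p = 0.00687). The arms are different animals. Same-numbered libraries of the arms share a plate and, apart from those numbered 4, a punching date, but no label names them pairs. The correlation of same-numbered deviations was above 0.1 for 3 (vCA1) to 12 (dDG) of the 13 to 15 pairs in a region, for every pair in none, and from 1 of 15 samples (vDG) to 7 of 15 (CER) correlated best with their own number. With date and plate as factors Nedd4l in dDG did not pass (0.34, adjusted p = 0.151). In the comparison of responses, the adjusted p of Sgk1 was 0.0531 without the count filter, 0.999929 without the replicate block by animal and 0.338 in limma-voom. In vehicle levels Sgk1 passed in 7 of 28 pairs without the animal block and in 7 with the oligodendrocyte level, and Ndrg1 in 8 with that level. Without the 2 farthest libraries 21 relations to marker levels passed over both arms: Sgk1 followed the oligodendrocyte level in 5 treated and 0 vehicle groups, Ndrg1 in 3 treated groups, and Ndrg2 the astrocyte level in 3 treated groups. The cause of each change was not tested. Sgk2, at 19 counts or fewer in every library, was below edgeR's count filter in every region.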
